A study of Oryza sativa Japonica Group with 16 samples.

Results

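The CHH methylation of crown root (CR) initials that overexpress the methylase DRM2 was compared with that of wild type CR initials, using every window of the deposited table of that comparison. The table lists 885310 windows, of 2093419 in the 4 deposited tables of the series, and all of them were kept. The series holds bisulfite sequencing (BS-seq) of CR and lateral root (LR) initials of *OxDRM2* plants and of the *ta2* mutant, a point mutant of the DNA demethylase DNG702. There were 8 libraries, 2 biological replicates in each mutant group, and each table sets 1 group against wild type initials of the same root type. The *OxDRM2* plants carry DRM2 under a ubiquitin promoter in the japonica rice cultivar Zhonghua11 (ZH11), which is also the background of the *ta2* mutant and of the wild type. The labels name no treatment of these groups. The initials were of stage 1, a cluster of cells without visible layers, and were cut from tissue sections by laser microdissection. A ubiquitin promoter is generally active in most cell types, and where DRM2 was overexpressed was not measured here. The sources used here do not say which transgenic line was sequenced, or whether both replicates came from 1 line. The libraries of the wild type are part of a different series and were not analysed here, so genotype and series cannot be told apart. A table of differences holds no expression markers, so neither the tissue nor the level of *DRM2* could be checked against the labels.

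Plants methylate cytosines in the CG, CHG and CHH contexts, where H is A, C or T. A CHH site has no mirror image on the opposite strand, so its methylation has to be laid down anew after each round of DNA replication. DRM2 is the enzyme that does this in RNA-directed DNA methylation, a pathway in which small RNAs guide the methylase to matching DNA, and in which the RNA polymerase RDR2 makes the double-stranded precursors of these small RNAs. In rice, this pathway is known to act mostly at short transposable elements and at the edges of longer ones, many of them in the gene-rich chromosome arms. In plants in general, CHH methylation deep inside the heterochromatin around centromeres depends more on chromomethylases such as CMT2.

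Each row of the deposited table is a window of 1000 bp, with windows placed every 100 bp, and gives its p-value and q-value and the CHH methylation of one genotype minus that of the other, in percentage points. The difference is at least 10 points in size in every row, and the largest q-value is 0.00479. Positive values were taken to mean more methylation in *OxDRM2* and are called hyper, and negative values hypo. The table itself does not state the direction of the subtraction. A base pair lies in 10 windows, so neighbouring windows share most of their cytosines and are not independent sites. The table carries no value for a single replicate and no number of reads or cytosines, so the depth behind a window is unknown, and no difference below has a replicate error, an interval or a test. Positions are those of the rice genome of RGAP version 7.0 as listed in the table, and an annotation of this version was not used here, so regions are given by position and not by gene.

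Nearly all changes in *OxDRM2* CR were gains. Hyper windows numbered 883648, which is 99.8% of the table and 23.7% of the 3731909 window positions of the genome. Hypo windows numbered 1662, or 0.0445% of positions. Most gains were moderate, since the median hyper window was 17.5 points above wild type, with quartiles of 13.1 and 25.4 points. In 37.2% of hyper windows the gain was between 10 and 15 points, and in 22.8% it was between 15 and 20 points. Gains above 20 points were found in 353575 windows (9.47% of positions), above 30 points in 148645 (3.98%), above 50 points in 27454 (0.736%) and above 80 points in 2144 (0.0575%). The share of windows with a p-value listed as 0 rose with the size of the gain, from 0.221% at 10 to 15 points to 60.9% above 80 points. The highest value, 100 points, was listed for 10 windows, and the lowest was -56.8 points. The median loss of hypo windows was small as well, at -13.8 points.

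Merged where they overlapped or touched, the hyper windows formed 66559 regions that covered 165.3 Mb, or 44.3% of the genome. Hypo windows formed 800 regions with 902.3 kb, or 0.242%. A window counts with its whole 1000 bp here although its changed cytosines may lie in any portion of it. Counting only the central 100 bp of each window, the hyper share was 23.7%.

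All 12 chromosomes gained CHH methylation to a similar extent. Hyper windows took between 20.9% of positions on chromosome 11 and 25.6% on chromosome 10, and merged regions covered between 39.9% and 47.4% of these same chromosomes. Chromosomes 4, 8 and 12 were also in the lower part of this range, at 22.1%, 22.2% and 22.6%. Chromosomes 1, 2, 3, 5 and 9 lay close together, between 24.7% and 24.9%, and chromosomes 6 and 7 were at 23.2% and 23.7%. The order did not follow length, as the longest chromosome (43.3 Mb) had a share close to that of the shortest (23.0 Mb). The size of the gain varied even less, with a median between 17.1 points on chromosome 10 and 18.0 points on chromosome 6. Short and long arms did not differ in a common direction, since the short arm had the higher share on 5 of the 12 chromosomes.

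Along the chromosomes, the landscape was mostly even, with few sparse stretches. The 368 full bins of 1 Mb had a median of 24.3% hyper positions, with quartiles of 21.2% and 26.8%, and 295 of them (80.2%) lay between 20% and 30%. Only 13 bins exceeded 30%. The fullest was at 7 to 8 Mb on chromosome 5 with 32.1%, followed by 21 to 22 Mb on chromosome 6 with 32.0% and 22 to 23 Mb on chromosome 3 with 31.8%. The fullest bin of each chromosome lay in a narrow range, from 28.7% on chromosome 10, at 13 to 14 Mb, to this 32.1%. The 37 fullest bins held 12.6% of all hyper windows, so no small set of bins carried the gain.

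**Figure D1:**
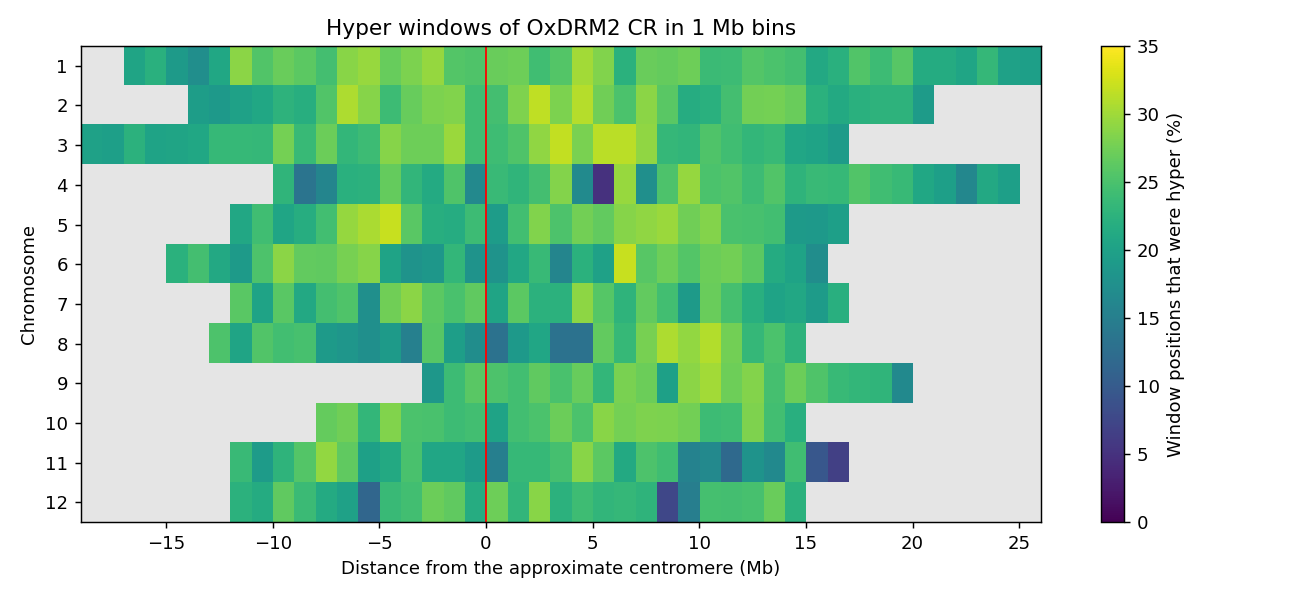
Share of window positions that were hyper in *OxDRM2* CR (colour, percent) in bins of 1 Mb, with 1 row for each of the 12 chromosomes and the distance of the bin from the approximate centromere in Mb along the x axis, the centromere being the red line. Most bins lie between 20% and 30%, and the dark bins at 4.98% on chromosome 4, 6.66% and 9.56% at 1 end of chromosome 11 and 7.49% on chromosome 12 stand apart.

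The lowest bin of each chromosome spread far more than the highest. Under 10% were 15 to 16 Mb on chromosome 4 (4.98%), 28 to 29 Mb and 27 to 28 Mb on chromosome 11 (6.66% and 9.56%), and 20 to 21 Mb on chromosome 12 (7.49%). The lowest bin of chromosome 8, at 16 to 17 Mb, had 13.2%, and that of chromosome 6, at 18 to 19 Mb, 15.9%. On the remaining 7 chromosomes, the lowest bin lay between 16.6% and 20.4%. The gains that were listed in the 4 sparsest bins were of ordinary or higher size, with medians between 17.6 and 19.8 points. These bins were also sparse in the other tables, with 2.67% to 6.65% of positions hyper in *OxDRM2* LR, 2.24% to 3.90% in *ta2* CR and 2.09% to 4.77% in *ta2* LR. Over all positions that each table covers, these shares were 12.6%, 10.4% and 9.73%. How many windows could be called in these bins was not tested, since the deposited table lists called windows only.

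The positions of centromeres were taken to the nearest Mb, as background knowledge of the japonica genome, and windows were placed in 3 zones. These were the 2 Mb on each side of the centromere, the 2 Mb at each chromosome end, and the arms between them. The share of hyper positions was 23.1% near centromeres, 24.3% in the middle of the arms and 20.6% in the distal arms. The distal arms had a lower share than the middle on 11 of 12 chromosomes, the exception being chromosome 8 with 23.6% against 22.9%. The lowest distal share was 14.9% on chromosome 11, whose end holds a pair of the sparse bins above. The centromere zone varied as widely between chromosomes, from 17.2% on chromosome 8 to 26.3% on chromosomes 1 and 2. It was below the middle on 7 chromosomes and above it on 5, so no common direction was found. Near centromeres minus the rest of the genome, the difference was -0.67 percentage points with the 2 Mb limit and turned to 0.22 points with a limit of 4 Mb.

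The size of the gain differed by zone in a more uniform way than its frequency. The median hyper window was 16.4 points near centromeres, 17.6 points in the middle and 17.9 points in the distal arms. It was lower near the centromere than in the middle on all 12 chromosomes, although on chromosome 6 the medians were 17.95 and 18.04 points. Against the distal arms it was lower on 11 chromosomes, and chromosome 6 was the exception with 17.95 against 17.50 points. In steps of 2 Mb from the centromere, the median rose from 16.4 points to 16.9, 17.4, 17.7, 17.9 and 18.0 points at 10 to 12 Mb, was 18.1 points at 12 to 14 Mb and 17.8 points at 14 to 16 Mb. The share of hyper positions instead had its peak of 25.6% at 6 to 8 Mb, and fell to 21.4% at 14 to 16 Mb. Gains above 30 points followed the share and not the median, with 4.34% of positions at 6 to 8 Mb and 3.55% at 14 to 16 Mb.

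**Figure D2:**
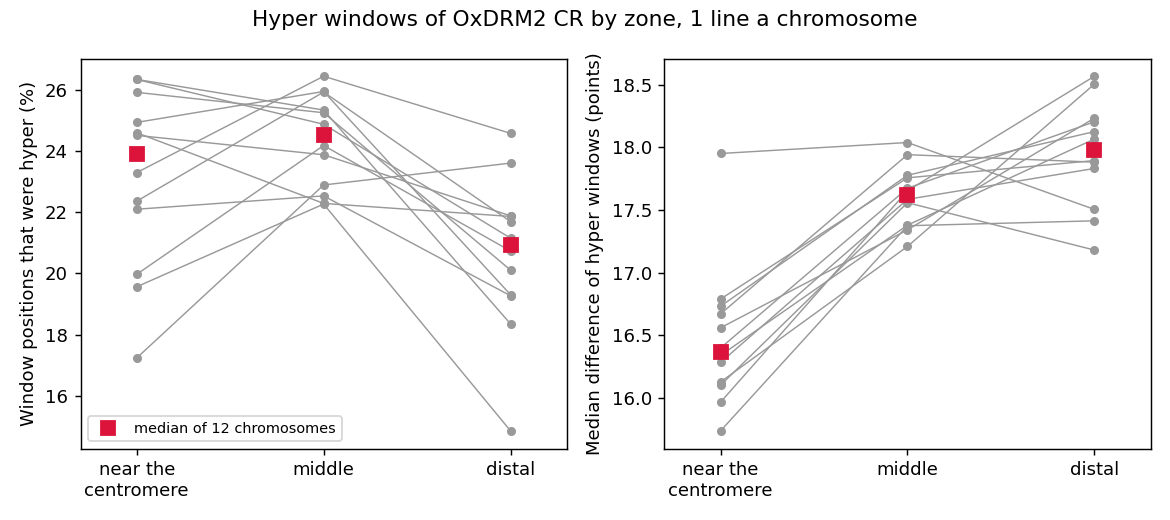
Share of hyper positions (percent) and median difference of hyper windows (percentage points) near the centromere, in the middle of the arms and in the distal arms, with 1 line for each of the 12 chromosomes and red squares for the median of the 12 chromosomes. The share drops from the middle to the distal arms on 11 chromosomes, and the median difference is lowest near the centromere on 11 of 12.

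The lowest bin medians also lay beside centromeres, with 14.9 points at 12 to 13 Mb on chromosome 11, 15.3 points at 19 to 20 Mb on chromosome 3 and 15.4 points at 7 to 8 Mb on chromosome 10. The highest bin medians were 22.3 points at 18 to 19 Mb on chromosome 6 and 20.5 points at 1 to 2 Mb on chromosome 4. These had few hyper positions, 15.9% and 13.4%. In *OxDRM2* LR, the zones had shares of 12.1%, 12.9% and 11.4%, with the distal arms below the middle on 10 chromosomes. The medians in LR did not have the order found in CR, since they were 21.1 points near centromeres against 20.6 points in both other zones, and the centromere zone was below the middle on only 2 chromosomes. The difference between the root types in this order was not tested.

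Hyper regions were mostly short. Their median length was 2000 bp, with quartiles of 1500 and 3000 bp, a 90th percentile of 4400 bp and a 99th percentile of 8100 bp. Single windows made up 6145 regions, or 9.23%. The most frequent length was 1900 bp with 7605 regions, against 2302 regions of 1800 bp and 3559 of 2000 bp. This length is the one that the 10 windows holding 1 base pair give together, so a change at 1 place of the DNA is listed as a region of 1900 bp. In 6136 of these 7605 regions all 10 windows were listed, and in 1465 of them the windows differed from each other by less than 5 points.

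**Figure D3:**
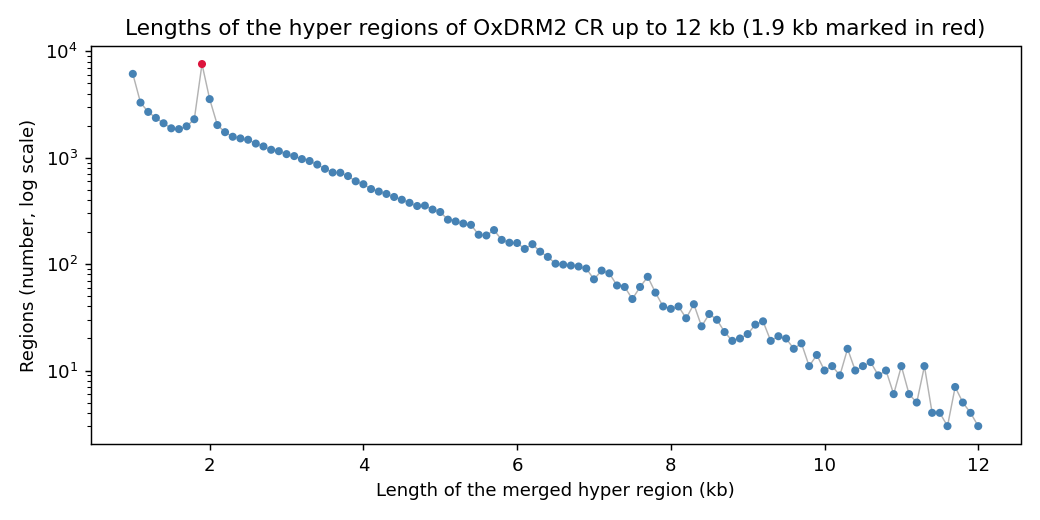
Number of merged hyper regions of *OxDRM2* CR (log scale) by length in kb, in steps of 100 bp up to 12 kb. The number peaks at 1.9 kb, marked in red with 7605 regions, and declines steadily beyond 2 kb.

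Longer regions had larger gains on average. The median of the mean difference was 11.7 points for regions of 1000 bp, 13.9 points for the 18508 regions of 1100 to 1800 bp and 17.6 points at 1900 bp. It was 19.6 points for the 29530 regions of 2000 to 4900 bp, which held 52.7% of the hyper length, and 20.5 points for the 4535 regions of 5000 to 9900 bp. Part of this order is fixed by the listing, as a region whose gain is near the limit of 10 points loses its outer windows. In the 12648 regions of 3000 to 4900 bp, the median of the outermost windows was 13.5 points on both sides. The central window was listed in 8258 of them, with a median of 18.04 points, and it exceeded the mean of the outermost windows in 63.5% of these. The highest window of a region was 1 of the outermost in 12.48% of the regions. The listing itself ends where the difference falls under 10 points. Low outermost windows are thus fixed in part by the listing, and regions whose central window was not listed are left out of the 63.5%.

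Long hyper domains, taken as merged regions of at least 10 kb, were rare. They numbered 236, with a median of 11.1 kb, and held 2.79 Mb or 1.69% of the hyper length. Their mean differences lay between 13.7 and 33.2 points, with a median of 21.2 points. The gain was therefore not larger than in regions of 5000 to 9900 bp by more than 1 point. Only 6 of them held a window above 80 points. Chromosome 1 had the most, 35 or 8.09 per 10 Mb, and chromosome 4 the fewest, 12 or 3.38 per 10 Mb. Of the 236 domains, 21 (8.90%) lay within 2 Mb of a centromere, a zone with 12.9% of all window positions. In the median domain, 76.1% of the window positions inside it were listed. In *OxDRM2* LR, 9 regions reached 10 kb, the longest with 13.4 kb.

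One domain stood apart in length. It was chr11:12078101-12122900 with 44.8 kb, beside the approximate centromere of chromosome 11, and no other domain of the table exceeded 21.4 kb. In it, 427 of 439 window positions (97.3%) were listed, with a mean gain of 15.8 points and a range of 10.5 to 28.5 points. The gain was thus low and even over the whole stretch. A second domain of the same kind followed at chr11:12148401-12163900, with 15.5 kb and a mean of 14.6 points. Over the 85.8 kb that hold both, 577 of 849 positions (68.0%) were hyper in *OxDRM2* CR. *OxDRM2* LR listed 65 positions there (7.66%), 12 of them hypo, with a lowest value of -75.2 points. *ta2* CR listed 65 (7.66%), all hyper, and *ta2* LR listed 25 (2.94%), 7 of them hypo, with a lowest value of -72.9 points. Among all positions that each table covers, hyper windows made up 12.6%, 10.4% and 9.73% in these 3 tables, and hypo windows 0.143%, 0.131% and 0.133%.

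The longest domain of each other chromosome measured 12.6 to 21.4 kb. Second in length was chr12:12788501-12809900 with 21.4 kb, also near a centromere, where the mean gain was 26.1 points and single windows ranged from 10.0 to 57.8 points. The highest mean among these 12 domains, 29.01 points, belonged to chr6:5534801-5552600 with 17.8 kb in the short arm. These stretches thus differed from the chromosome 11 domain in their higher and more uneven gain.

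The remaining domains of this set were in the arms, apart from chr7:10710501-10725900 (15.4 kb, 20.7 points), which lies within 2 Mb of the centromere. They were chr5:5613701-5630400 (16.7 kb, mean 24.0 points), chr8:23015201-23031300 (16.1 kb, 25.2 points), chr3:5015201-5030900 (15.7 kb, 24.2 points) and chr2:6296201-6311700 (15.5 kb, 19.7 points). Shorter ones were chr9:632501-647500 (15.0 kb, 23.3 points), chr1:26334501-26349400 (14.9 kb, 27.5 points), chr10:2002601-2017300 (14.7 kb, 23.4 points) and chr4:21268601-21281200 (12.6 kb, 19.4 points). A high single window stood in the chromosome 1 domain, at 87.6 points, while the others of this paragraph had their highest window between 45.5 and 64.8 points.

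Hyper regions were spread rather than gathered in a few places. The gap to the next region had a median of 1900 bp with quartiles of 700 and 4100 bp, and 33.6% of the gaps were at most 1 kb. Bins of 100 kb held a median of 18 regions, with 5th and 95th percentiles of 12 and 23 and a highest value of 29. The variance of these numbers was 0.84 times their mean, and 5 of the 3727 bins held no region. Merging removes neighbours that touch, which by itself makes the numbers more even.

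Long gaps without a hyper region were few and lay on few chromosomes. Of 66547 gaps, 3091 (4.64%) exceeded 10 kb and 58 exceeded 50 kb, with 5.15 Mb in the latter. Chromosome 11 had 19 of these 58, chromosome 12 had 12, and chromosomes 4 and 8 had 9 each, while chromosome 5 had none. The longest was chr4:15164401-15389300 with 224.9 kb, and 3 more of the 10 longest lay within 1 Mb of it on chromosome 4, with 165.7, 161.1 and 127.2 kb. A gap of 159.6 kb, chr11:12308201-12467800, lay beyond the longest domain of the table on the same chromosome. In the longest gap, *ta2* CR listed 4 windows and the other tables listed none.

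The 2144 windows above 80 points formed 511 regions with a median of 1200 bp and a longest of 3800 bp, in 503 of the hyper regions. The 37 bins of 1 Mb with most of them held 60.8%, and 148 bins held none. Since they form few regions, this share is high in part by their number alone and was not compared with that of all hyper windows. Chromosome 6 had 533 of these windows and chromosome 4 had 365, together 41.9% on 17.9% of the genome, and chromosome 9 had the fewest, 48. Their share was 0.0506% of positions in the middle of the arms, 0.0700% near centromeres (336 windows) and 0.0851% in the distal arms (400 windows). A few bins weighed heavily in the last 2 zones. Toward chromosome ends, 1 to 2 Mb on chromosome 4 had 161, and 27 to 28 Mb and 28 to 29 Mb on chromosome 11 had 63 and 36. Beside the centromere of chromosome 6, 14 to 15 Mb and 15 to 16 Mb had 69 and 66. No general order of the zones is therefore read from these shares.

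**Figure D4:**
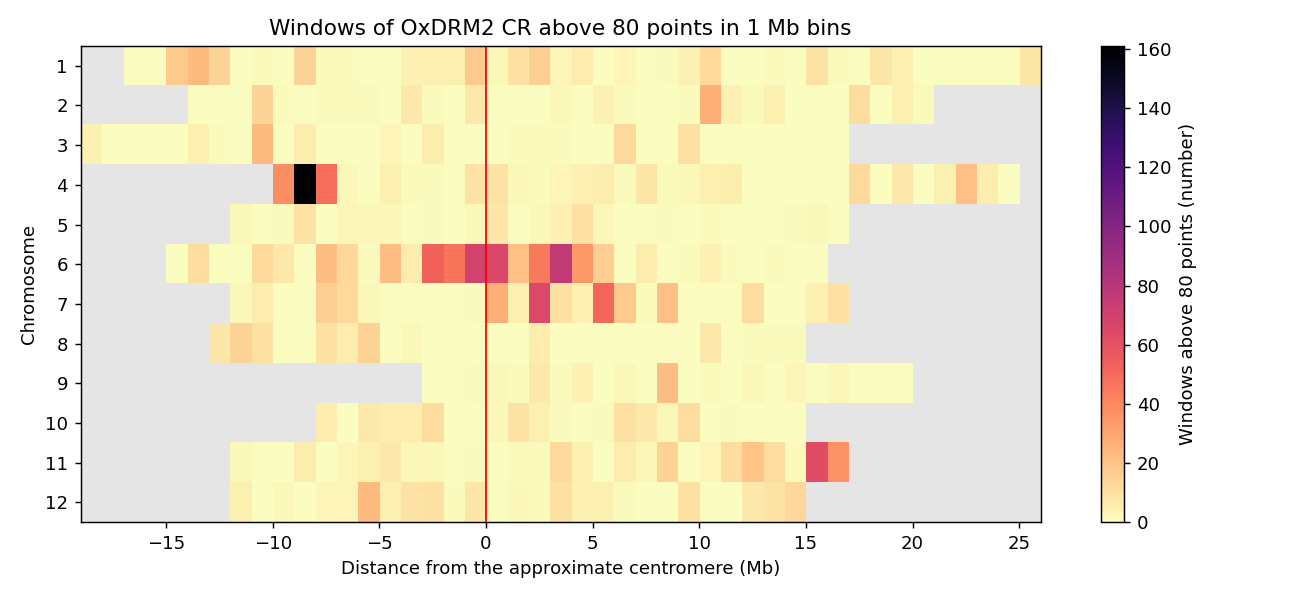
Number of windows above 80 points in *OxDRM2* CR (colour) in bins of 1 Mb, with 1 row for each of the 12 chromosomes and the distance from the approximate centromere in Mb along the x axis, the centromere being the red line. The highest count is 161 windows at 1 to 2 Mb on chromosome 4, followed by 76 at 18 to 19 Mb on chromosome 6.

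Along the chromosomes, 3 stretches were picked after their values were seen, and are given as a description. On chromosome 6, 10 to 20 Mb held 81 of the 511 regions above 80 points, which is 15.9% on 2.68% of the genome. On chromosome 4, 1 to 3 Mb held 26 (5.09% on 0.536%), and on chromosome 11, 27 to 29 Mb held 14 (2.74% on 0.536%). Hyper windows in general were sparse in all 3 stretches, at 19.9%, 14.7% and 8.11% of positions against 23.7% in the genome. This did not hold for every bin with many windows above 80 points, since 17 to 18 Mb on chromosome 7 had 51 of them with 25.7% of positions hyper. The other tables listed regions above 80 points in these stretches as well. In the order chromosome 6, 4 and 11, *OxDRM2* LR had 104, 25 and 17 of its 1041 such regions there (9.99%, 2.40% and 1.63%). In *ta2* LR these were 120, 27 and 17 of 1259 (9.53%, 2.14% and 1.35%). *ta2* CR, which shares its wild type libraries with *OxDRM2* CR, listed 82, 26 and 13 of 739 (11.1%, 3.52% and 1.76%). These shares were below those of *OxDRM2* CR, but the stretches were picked by its values, so no contrast is read from this. The numbers of regions in the other tables were close to or above those of *OxDRM2* CR, and their totals were larger than its 511. Of all positions covered, windows above 80 points took 0.113% in *OxDRM2* LR, 0.14% in *ta2* LR and 0.088% in *ta2* CR.

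The 10 strongest regions with at least 5 windows had mean gains between 93.7 and 99.6 points. They lay on 5 chromosomes, with 3 each on chromosomes 6 and 11, a pair on chromosome 7, and 1 each on chromosomes 4 and 12. All were narrow and flat, since 6 measured exactly 1900 bp and the windows within a region differed by 0.44 to 4.19 points.

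The strongest was chr12:6488101-6490000, with 10 windows of 95.8 to 100 points and a mean of 99.6 points. None of the other tables listed a window there. Its p-values, between 4.23e-91 and 6.92e-73, were larger than those of most regions of the set, in which p was often listed as 0.

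Next was chr7:14156301-14158800, the widest of the set, with 16 windows of 95.3 to 98.4 points and a mean of 96.5 points. No other window was listed within 5 kb of its centre, so the gain stood alone. *OxDRM2* LR listed 8 of its positions with a mean of 97.7 points, *ta2* LR 8 with 97.4 points, and *ta2* CR none.

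A group of 5 regions was listed in all 4 tables over the same number of windows, with means between 89.5 and 97.5 points. These were chr6:14471501-14473400 (95.4 points in *OxDRM2* CR), chr7:17867401-17869400 (95.3 points), chr4:1456601-1458500 (95.3 points), chr6:15221501-15223400 (94.7 points) and chr11:24435001-24436900 (93.7 points). On chromosome 4, for example, the mean was 94.3 points in *OxDRM2* LR, 95.4 points in *ta2* CR and 95.2 points in *ta2* LR. A gain of this size leaves little methylation in the wild type of the same comparison, since the difference cannot exceed 100 points.

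The other regions of the set were listed in only some of the tables. At chr11:28571701-28573600 the gain averaged 95.04 points in *OxDRM2* CR and 96.0 points in *ta2* CR, and neither LR table listed it. At chr6:10216301-10217800 *OxDRM2* CR gained 94.9 points and *OxDRM2* LR 98.7 points, and neither *ta2* table listed it. At chr11:28502901-28504300, 5 windows had a mean of 93.9 points in *OxDRM2* CR, and *ta2* CR had 94.5 points over 5 windows, *OxDRM2* LR 84.9 points in 1 window and *ta2* LR 92.3 points in 3. In all, *OxDRM2* LR listed 8 of the 10 regions, *ta2* CR 7 and *ta2* LR 7, always as hyper. Of all 2144 windows above 80 points, 1307 were hyper in *OxDRM2* LR, 1540 in *ta2* CR and 1297 in *ta2* LR. Of the positions that each table covers, 12.6%, 10.4% and 9.73% were hyper. Chromosome 9, where the copy of *ta2* CR lists no window, held 48 of the 2144. Above 80 points in these tables were 1077, 1227 and 1108 of the 2144. Since the *ta2* CR and *OxDRM2* CR tables share wild type libraries, their common entries are not independent.

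**Figure D5:**
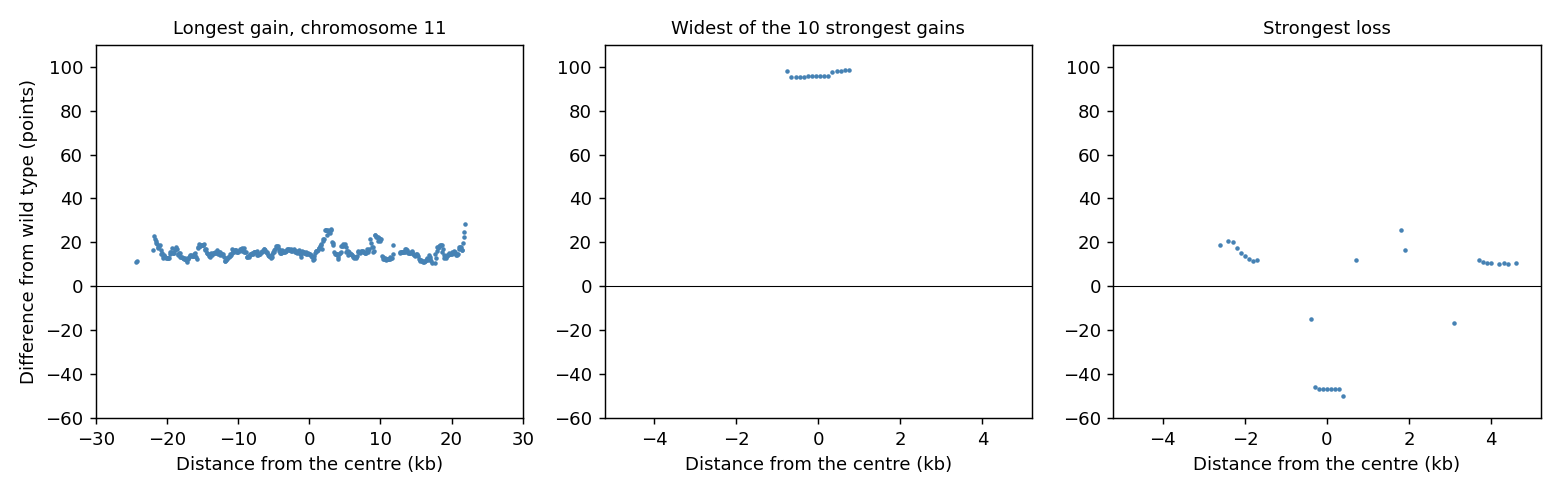
Difference from wild type (percentage points) of each listed window of *OxDRM2* CR by distance from the region's centre in kb, for the longest gain on chromosome 11, the widest of the 10 strongest gains, and the strongest loss. The longest gain runs at 10.5 to 28.5 points over 44.8 kb, the strong gain is a flat run of 95.3 to 98.4 points, and the loss is a run that reaches -49.9 points with hyper windows on both sides.

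Losses were few and short. The 800 hypo regions had a median of 1000 bp and a longest of 2500 bp, and 440 (55.0%) were single windows. Of these regions, 507 (63.4%) overlapped or touched a hyper region and 679 (84.9%) had one within 1 kb. Over all window positions of the genome, these shares were 60.3% and 77.2%, and over positions that were not hyper they were 48.0% and 70.1%. Hypo regions of several windows are longer than 1 position, and the excess was not tested. The farthest lay 20.3 kb from the nearest hyper region. By zone, 53 (6.63%) lay near centromeres, 642 (80.3%) in the middle of the arms and 105 (13.1%) in the distal arms, which have 12.9%, 74.5% and 12.6% of positions. Hypo regions were thus less frequent near centromeres than elsewhere, at a small number. Chromosome 1 had the most, 119, and chromosome 11 the fewest, 36. Losses below -30 points were listed for 63 windows (0.00169% of positions) in 37 regions, with at least 1 on each chromosome and 7 on chromosome 6.

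Among the 73 hypo regions with at least 5 windows, the strongest loss was at chr1:41091201-41093000. Its 9 windows had a mean of -43.4 points and ranged from -49.9 to -14.7 points, and 6 of the 9 lay at the same value of -46.7 points. The nearest hyper windows were centred 0.7 kb from its centre on 1 side and 1.7 kb on the other, and the one at 0.7 kb overlaps the region in part. No other table listed a window in it.

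Next came chr3:21010401-21011800 with -36.1 points over 5 windows and chr6:25607001-25608500 with -34.6 points over 6. Mean losses between -27.5 and -21.3 points followed at chr4:34158801-34160300, chr5:24142801-24144200, chr1:26082001-26083600, chr1:31336901-31338500, chr7:25222901-25224800, chr1:9112401-9113900 and chr9:19905401-19906800. Of these 10 losses, *OxDRM2* LR listed none, and *ta2* LR listed 1, on chromosome 9, with 2 windows at a mean of 11.02 points, thus as hyper. Hypo windows made up only 0.143% and 0.133% of all positions in these tables, so no contrast with the strongest gains is read from this. *ta2* CR, with the same wild type libraries, listed windows in 5 of the 10, with means between -21.4 and -12.4 points. Its hypo windows made up 0.131% of the positions it covers, and its copy lists no window on chromosome 9, where 1 of the 10 lies.

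*OxDRM2* LR, the same genotype in the other root type, offered a comparison with a separate set of wild type libraries. Its table had 470896 hyper windows, 12.6% of positions, and *OxDRM2* CR exceeded it on all 12 chromosomes, by 1.81 to 2.03 times. The 341523 windows that were hyper in both made up 38.6% of the CR list and 72.5% of the LR list, against 12.6% and 23.7% of all positions. Gains were smaller in the CR windows that LR did not list than in the shared ones. The 540123 CR windows that LR did not list had a median gain of 15.7 points, while the shared windows had 21.01 points in CR and 22.8 points in LR. Of CR windows at 10 to 15 points, 24.5% were hyper in LR, against 56.9% of those above 30 points and 60.7% above 50 points. Part of this order is fixed by the limit of 10 points in both tables, as windows near it are more easily left unlisted. Above 80 points, LR had more windows than CR, 4234 against 2144. Where both were listed, CR had the higher gain in 41.5% of windows. By the study's sequencing summary, the *OxDRM2* libraries were deeper in CR than in LR and the wild type libraries were shallower in CR than in LR, so root type and depth cannot be told apart here. Windows hyper in CR and hypo in LR numbered 2002, of 883648 hyper windows in CR and 5336 hypo windows in LR. Of all positions, 23.7% were hyper in CR and 0.143% were hypo in LR. Losses listed in both root types were few in number, but their share was above that over all positions, which was not tested. Of the 1662 hypo windows of CR, 29 (1.74%) were hypo in LR and 92 (5.54%) were hyper there, against 0.143% and 12.6% of all positions.

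Of the DNA methylation genes chosen for naming, only *RDR2* (LOC_Os04g39160) on chromosome 4 could be placed. It was placed by a short bin of its promoter whose position the study's gene table gives, and not by the whole promoter. By the study's Methods, the bin kept for a gene is the one whose methylation correlates best with its transcription. *OxDRM2* CR listed 7 hyper windows that overlap this bin, with a mean of 11.2 points and a range of 10.3 to 12.2 points. These gains were close to the lower limit of the table and below the median of all hyper windows. Hyper regions of *OxDRM2* CR covered 44.3% of the genome, so hyper windows at a given place are common. *OxDRM2* LR listed 9 windows with a mean of 13.9 points, *ta2* LR listed 2 with 10.2 points and *ta2* CR none.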

How the data were processed

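BS-seq of stage 1 initials was read as deposited tables of 1 comparison each. Mapping was done by the authors with BS-Seeker2 (v2.1.8) on the genome of RGAP version 7.0. Their processing notes also name methylKit, whose part in these tables is not given in the sources used here. For each window, the deposited tables give p-value, q-value and a signed score, which is CHH methylation in one genotype minus the other in percentage points. These are the authors' own comparisons, and they were used as the measurement because the tables hold nothing else. The paper's Methods describe windows of 50 bp tested with Fisher's exact test, while the windows read here are 1000 bp wide every 100 bp, with differences of at least 10 points and q-values under 0.01 as checked on the table. The labels name both TruSeq DNA Methylation and KAPA reagents, and the kit of each library is not settled by them.

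Overlapping or touching windows of 1 direction were merged. The number of possible windows was counted in steps of 100 bp until the end of the last window in any table on a chromosome, 373.2 Mb in all. Named regions were the longest of each chromosome, the 10 highest and 10 lowest by mean difference among regions of at least 5 windows, and the highest and lowest 1 Mb bin of each chromosome. Regions, genes and limits were chosen with earlier results of these data known. The copy of the *ta2* CR table used here ends on chromosome 8 at position 23670800 and lists no window on chromosome 9. Its counts are those of the listed part. No test was run, since windows are not replicates. Read depth per library is given by the study but not in the tables and was not used in any value, so no precision can be given. GC content, CHH density and gene context were not analysed here. Merging and counting were tested on simulated data. Alternatives changed the limits on difference, q-value, merging, zones, bins and overlap. Scripts ran in Python 3.11.15 with pandas 2.3.3, numpy 2.4.6 and, for plots, matplotlib 3.10.9.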

Additional observations from a re-analysis of the deposited data

How the results depend on the processing

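Hyper windows fell to 353575 above 20 points, 148645 above 30 points and 88451 where windows do not overlap, and hypo windows to 258, 63 and 179 under the same settings. Hypo regions above 20 points numbered 164. The share of sequence in hyper regions was 23.7% with the central 100 bp of each window and 22.4% above 20 points. The share near centromeres minus the rest was -1.90 points with a limit of 1 Mb and reversed to 0.22 points with 4 Mb, so no direction is given for it. Distal arms minus the rest was -3.47 points and moved to -0.50 points for windows above 30 points, still below 0. The lowest bin had 1.46% in bins of 500 kb. Long domains numbered 2 at a length of 20 kb, 1141 with windows within 500 bp merged and 1 with only windows above 20 points merged, so this count depends on the merging. Windows above 70 points numbered 5191 and below -20 points 258. The share of CR hyper windows also hyper in LR was 51.3% within 200 bp and 41.7% above 30 points in both tables. The other alternatives that were run, on the q-value, merged regions, the 1 Mb distal limit, the highest bin and the median gap, kept their values within 1.5 times. No paired analysis was possible because the table holds no value per replicate, and leaving out each replicate was not run for the same reason. Approximate centromeres, unknown depth and unlisted windows limit the zone and bin values.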
